A study of Danio rerio with 8 samples.

Results

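The transcriptome of control fli1a GFP cells of zebrafish larvae was described from 4 of the 8 RNA-seq libraries of a study on heparanase 2, namely those that the labels call control. The larvae were of the Tg(fli1a:eGFP)y1 line, in which regulatory sequence of fli1a drives GFP, and their genotype is given as wt. They had received, at the one-cell stage, the standard control morpholino of GeneTools, an antisense oligomer, in an amount equimolar to the hpse2 morpholino of the other libraries. At 96 hours post fertilization (hpf), 60 to 80 larvae were pooled and taken apart with trypsin. Propidium iodide was added and the GFP-positive cells were sorted, and their polyadenylated RNA was sequenced by an ultra-low-input protocol. The labels name biological replicates 1 and 2 with 2 libraries each, called here 1_1, 1_2, 2_1 and 2_2. Nothing in them tells if both libraries of a replicate share a pool of larvae, so the spread between the libraries may in part be technical. The values of single libraries are given in that order throughout, and ± stands for the SD over the 4 libraries.

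Fli1a is a transcription factor of the ETS family that acts in the development of blood vessel endothelium, and reporters built on it are widely used to see vessels in live larvae. In such lines GFP also marks derivatives of the cranial neural crest in the pharyngeal arches, from which the cartilage and connective tissue of the larval face form. Endothelium is defined by junction and receptor genes such as cdh5, which encodes VE-cadherin, and kdrl, which encodes a VEGF receptor. Cartilage is defined by matrix genes such as matn1, a matrilin, and col2a1a, a type II collagen chain, and fibrous connective tissue by type I collagen genes such as col1a2. The GFP of the sort is driven by fli1a sequence, so the sort itself selected cells in which that sequence is or was active.

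The labels call the sorted cells endothelium, and the defining genes of endothelium were present, but they were not the leading genes of these libraries. The 66 genes of the cartilage and connective tissue lists held 9.39 ± 0.4599% of all counts, and the 34 endothelial identity genes held 0.143 ± 0.02804%. Corrected for gene length, the cartilage list summed to 24.8, 25.8, 16.6 and 17.98 times the level of the endothelial identity list in the 4 libraries. The connective tissue list stood at 21.9, 19.01, 15.8 and 17.2 times that level. The cells are therefore called by their sort, fli1a GFP cells, and not by one cell type. The ratios of summed levels also depend on which genes each list holds. Medians lay closer together, at 63.8 CPM per kb for cartilage and 101 for connective tissue, beside 9.35 for endothelial identity. In bulk RNA, fewer cells of a type and less RNA per cell cannot be told apart, so the shares given here are shares of RNA and not of cells.

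**Figure D1:**
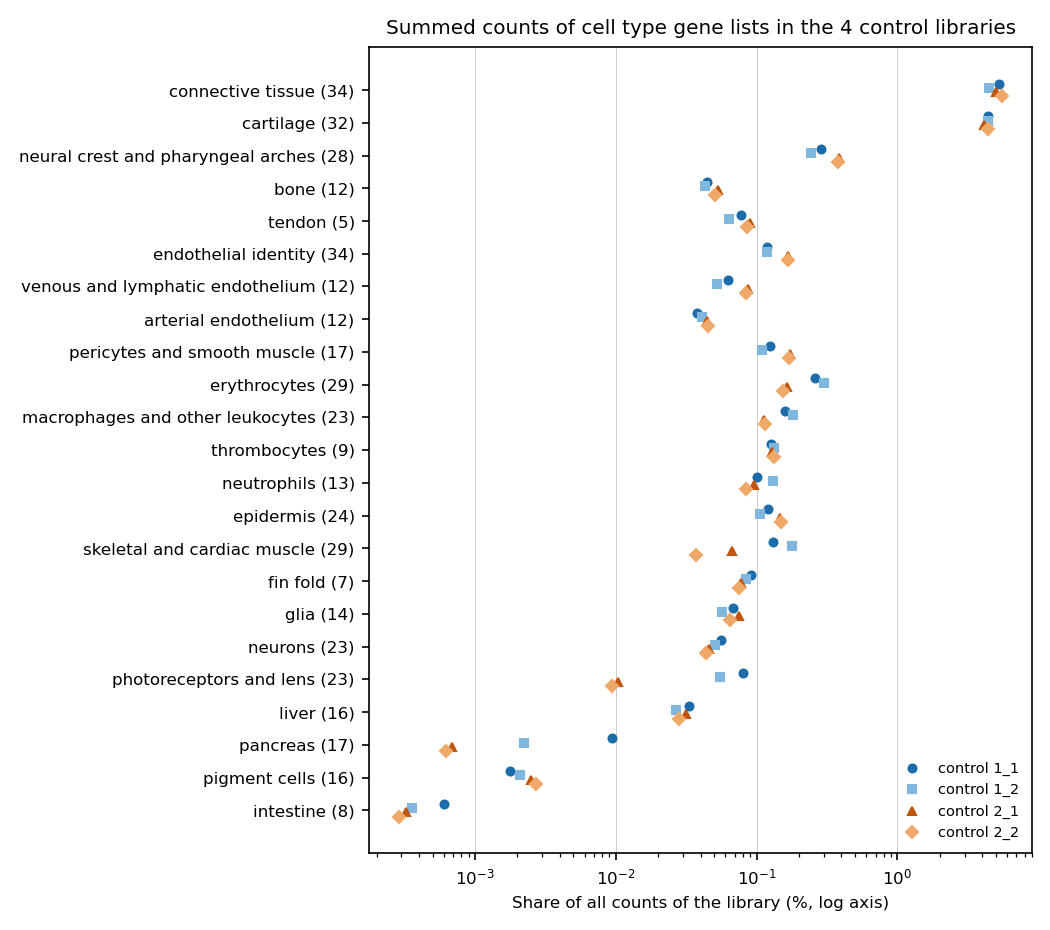
Percent of all counts (log axis) held by each cell type list in the 4 control libraries, with the number of matched genes in brackets and 1 symbol per library. The connective tissue and cartilage lists lie between 4.12 and 5.51% in every library, and the endothelial identity list between 0.118 and 0.168%.

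The libraries held 5048839 to 11344918 counts, spread over 32520 listed genes. A count was found for 20106 to 21660 genes per library, and for 20106 to 20470 when all were thinned to the depth of the shallowest. Across libraries, 14601 genes reached 1 CPM (a count scaled to a library total of 1000000) in all 4. At these depths a total of 3 counts corresponds to 0.264 to 0.594 CPM, so levels under 1 CPM rest on few reads. Protein-coding genes held 97.6 ± 0.152% of counts. Binomial 95% intervals (Wilson) of the list shares cover counting error only and reached at most 0.0179 percentage points to either side for cartilage and 0.002997 for endothelial identity, both under the SD over libraries.

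Some genes that every cell uses were listed at 0 in all 4 libraries. Of 81 cytosolic ribosomal protein genes, rpl32 was at 0 while the median of the family was 142.6 CPM. Among 47 proteasome subunit genes, 3 were at 0, namely psma5, psmb11a and psmb11b, against a family median of 111.8 CPM. Of these, psmb11a and psmb11b are not counted here as genes that every cell uses. Of 39 complex I subunit genes, 3 were at 0, namely ndufa12, ndufb4 and ndufb5, against a family median of 28.4 CPM. These families were chosen after the values had been seen. A 0 in this table is therefore given below as listed at 0 and is not read as an absent transcript.

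Counts were spread widely, with a collagen gene in first place. The 10 top genes held 8.43, 7.93, 7.84 and 8.07% of counts, the 100 top genes held 22.2 to 24.2%, and 751 to 880 genes were needed to reach 50% of counts. By CPM, col1a2, which encodes the second chain of type I collagen, ranked 1 at 14953, 12847, 13740.4 and 15714 CPM. Library 1_2 was lowest and library 2_2 highest, and the biological replicates overlapped, since library 1_1 lay above library 2_1. The partner chain gene col1a1b ranked 4 at 9855 ± 847 CPM, the type II chains col2a1a and col2a1b ranked 6 and 10, and matn1 ranked 7. Of the 20 top genes by CPM, 13 belonged to the cartilage or connective tissue lists and 2 to the immediate early genes. The others were actb2, a cytoplasmic beta actin gene at 10411 ± 112 CPM, a mitochondrial ribosomal RNA listed as NC_002333.4 at 12514 ± 1006 CPM, the elongation factor gene eef1a1l1, the tetraspanin gene cd81a and an unnamed long non-coding RNA. That RNA, CR383676.2, lies on chromosome 14, 45631236 to 45638712 (GRCz11), has a counted length of 7477 bases, and had 6591, 5793, 7560.4 and 6929 CPM.

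A rank by CPM orders genes by their share of reads, in which long genes weigh more, so levels were also set per kilobase (kb) of the gene length in the table. On that scale actb2 led the protein-coding genes at 4799.9 CPM per kb, followed by junbb at 3640.3 CPM per kb, mt-co2, matn1 at 2539 CPM per kb and col1a2 at 2489 CPM per kb. Junbb and fosab, which ranked 3 and 8 over all genes, encode subunits of the AP-1 transcription factor and belong to the genes that cells switch on within a short time of a stimulus. The order among matn1 and col1a2 is not firm, because col1a2 lay above matn1 in libraries 2_1 and 2_2 and below it in libraries 1_1 and 1_2. Also among the 20 top genes were slc25a5, a mitochondrial ADP/ATP carrier gene, at 1829 CPM per kb, the nuclear protein genes ptmab, hmgb2b and hmgn2 at 1385, 1335 and 1257 CPM per kb, and tmsb4x, an actin-binding thymosin gene, at 1253 CPM per kb. Fli1a ranked 384 on this scale. Copies such as actb1 and actb2 are alike in sequence, and how the authors' counting divided shared reads between such genes is not known, so their single values are uncertain.

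**Figure D2:**
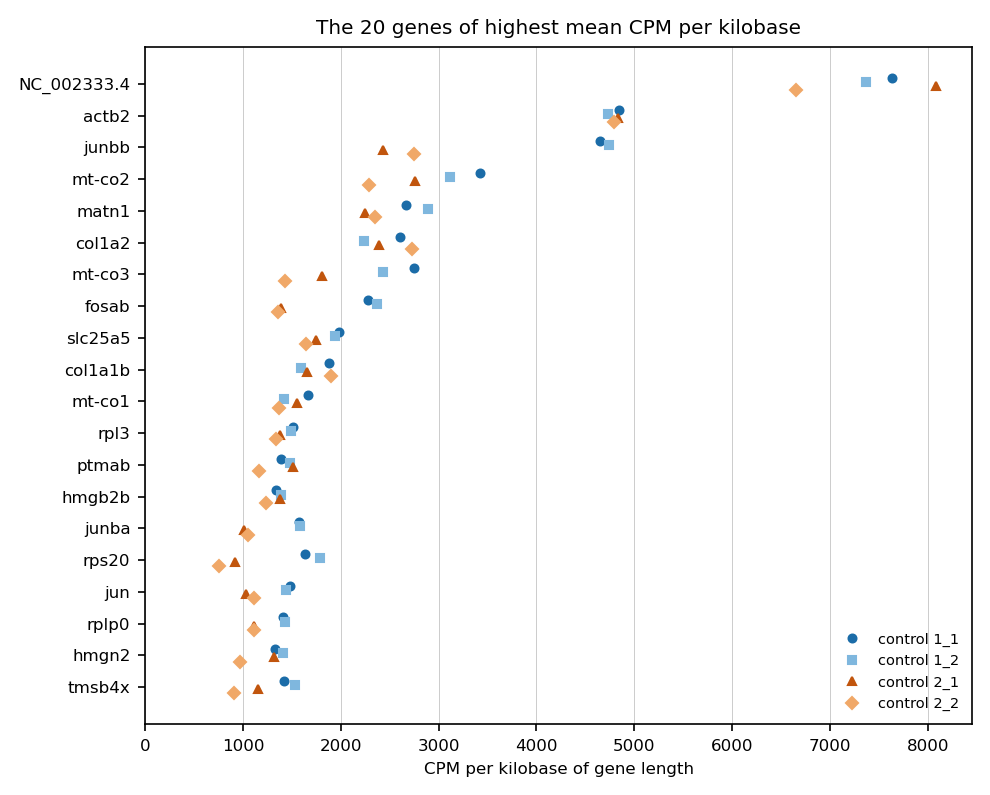
CPM per kilobase of gene length for the 20 genes of highest mean on that scale, with 1 symbol per control library. The 2 libraries of biological replicate 1 lie above both libraries of biological replicate 2 for junbb, fosab, junba, jun, rps20, matn1, mt-co2 and mt-co3. The same holds for slc25a5, rpl3, rplp0, hmgn2 and tmsb4x, beside 28% of the 4151 genes with a mean of 50 CPM or more. The 4 values of actb2 have a CV of 1.08%.

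Most endothelial identity genes were detected in every library. Of the 34 genes, 32 had a count, 30 reached 1 CPM in all 4 libraries, 28 averaged 10 CPM or more, and only fli1a and tal1 averaged 100 CPM or more. Their median was 9.35 CPM per kb, beside 3.01 CPM per kb for the 21681 protein-coding genes with a count, of which 45.3% averaged 10 CPM or more and 9.68% averaged 100 CPM or more. The 32 members with a count had a median percentile of 70.4 among those protein-coding genes. Fli1a (chromosome 18, 48423973 to 48487875, GRCz11) had 426, 419, 534 and 540.3 CPM. Both libraries of biological replicate 1 lay below both of biological replicate 2. Such separation was common, since of the 4151 genes with a mean of 50 CPM or more, 41.7% were lower in biological replicate 1 without overlap and 28% were higher. Fli1a alone made up 33.6% of the list's counts.

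The junction and receptor genes stood far below fli1a. Cdh5 (chromosome 7, 44445595 to 44471544) had 25.6, 25.2, 54.9 and 43.9 CPM, and per kb fli1a was at 34.7, 34.7, 20.3 and 25.7 times its level. Kdrl (chromosome 14, 32983769 to 33044955) had 43.2, 29.5, 82.4 and 75.1 CPM, and fli1a was at 17.6, 25.3, 11.6 and 12.8 times its level per kb. Both genes were lower in each library of biological replicate 1 than in each library of biological replicate 2. The second VEGF receptor gene of this class, kdr, averaged 26.2 ± 7.86 CPM, the angiopoietin receptor tek 31.8 ± 13.4 CPM, its relative tie1 21.2 ± 11.7 CPM and the adhesion molecule pecam1 21.4 ± 13.4 CPM. In all of these, too, both libraries of biological replicate 1 lay below both of biological replicate 2.

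Among the 12 most abundant members per kb were transcription factors that endothelium shares with blood progenitors. Tal1, a bHLH factor of both lineages, had 102, 134, 101 and 99.96 CPM, and its partner lmo2 had 56.4, 61.8, 57.9 and 62.7 CPM. Library 1_2 stood above the other 3 for tal1, and the libraries were close together for lmo2. The related ETS genes fli1b and erg averaged 92.3 ± 14.7 CPM and 18.5 ± 5.33 CPM, and sox18, a factor of vascular and lymphatic differentiation, 19.98 ± 5.54 CPM. Egfl7, a secreted factor of vessel tube formation, averaged 41.9 ± 15.5 CPM, clec14a, an endothelial lectin, 35.9 ± 18.8 CPM, and the adrenomedullin receptor genes calcrla and ramp2 46.4 ± 9.16 CPM and 58.6 ± 10.4 CPM. The apelin receptor gene aplnra averaged 36.8 ± 10.1 CPM and dusp5, a phosphatase of ERK kinases, 24.8 ± 2.65 CPM. Etv2, the ETS factor of the first endothelial progenitors, was still at 12.9, 10.1, 27.5 and 27.9 CPM, lower in both libraries of biological replicate 1 than in those of biological replicate 2. The sphingosine receptor gene s1pr1 and myct1a were listed at 0 in all 4 libraries, and the VEGF receptor gene flt1 held 0, 0, 2 and 4 counts.

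Genes of vessel subtypes gave 0.04198 ± 0.00338% of counts for the 12 arterial genes and 0.0714 ± 0.01703% for the 12 venous and lymphatic genes. The leading arterial genes were efnb2a, the ephrin-B2 ligand of arterial cells, at 175 ± 38.3 CPM, hey1, a transcriptional repressor downstream of Notch, at 100.03 ± 45.7 CPM, and the Notch ligand dll4 at 67.4 ± 15.01 CPM. Hey1 went against the list, at 94.8 and 166 CPM in biological replicate 1, against 67.2 and 71.8 CPM in biological replicate 2, whereas efnb2a and dll4 were lower in biological replicate 1. The arterial connexin genes gja5a and gja5b averaged 0.885 CPM and 2.55 CPM. On the venous side, nr2f2, a nuclear receptor of venous identity that is also active in mesenchyme, had 188, 151, 308 and 294 CPM, and ephb4a, the receptor of efnb2a, had 193, 158, 237 and 239 CPM. The VEGF-C receptor gene flt4 averaged 94.8 ± 20.6 CPM and the scavenger receptor genes stab1 and stab2 30.1 ± 12.5 CPM and 9.67 ± 4.99 CPM. The lymphatic gene prox1a, a homeobox factor, averaged 30.2 ± 5.53 CPM. Lyve1b, a hyaluronan receptor of lymphatic vessels, had 2, 3, 43 and 83 counts, so it was near 0 in biological replicate 1 and low in biological replicate 2.

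**Figure D3:**
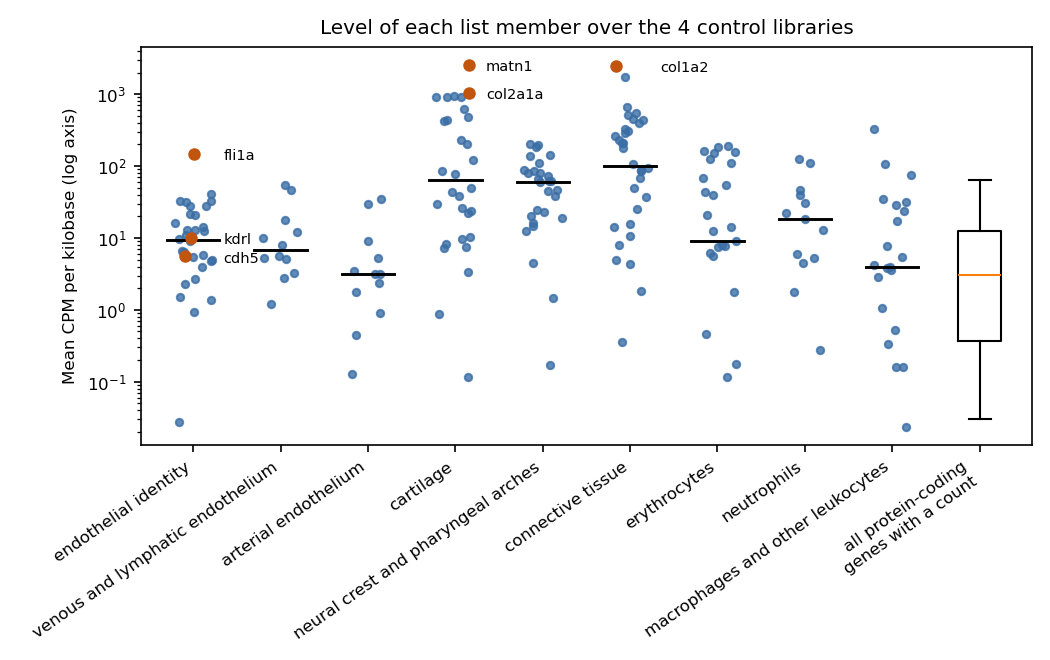
Mean CPM per kilobase over the 4 control libraries (log axis) for each list member with a count, 1 point per gene, with the median of all matched members as a black line and the 6 marker genes in orange. The box gives the quartiles of the 21681 protein-coding genes with a count and its whiskers the 5th and 95th percentiles. The medians are 63.8 for cartilage, 101 for connective tissue and 9.35 for endothelial identity, beside 3.01 for all protein-coding genes.

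Cartilage genes held 4.39, 4.41, 4.12 and 4.38% of counts in the 4 libraries. The share varied little, with a CV of 3.13%, and was lowest in library 2_1. Of the 32 genes, 31 had a count, 29 reached 1 CPM in all libraries, and 20 averaged 100 CPM or more. Their median was 63.8 CPM per kb. For the 31 members with a count, the median percentile among the protein-coding genes with a count was 95.99. Matn1 (chromosome 19, 43314700 to 43338280) had 5502, 5984, 4645 and 4851 CPM, higher in biological replicate 1 than in biological replicate 2 without overlap, and per kb it was at 20.3, 22.5, 13.7 and 14.1 times the level of fli1a. Col2a1a (chromosome 8, 21195420 to 21219473) had 6397, 6373, 5488 and 6368 CPM, with library 2_1 well below the other 3. Its values were higher in biological replicate 1 without overlap, but library 2_2 lay just under library 1_2. Per kb it stood at 8.205, 8.32, 5.62 and 6.44 times fli1a.

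Beyond the fibrillar collagens, the matrix genes of cartilage differed widely in level. Matn4, a further matrilin, averaged 1021 CPM per kb, and hapln1a, the link protein that ties aggrecan to hyaluronan, 619.5 CPM per kb. The aggrecan copies acana and acanb averaged 49.8 and 8.34 CPM per kb, a ratio of 6.02 ± 0.578, and hapln1a stood at 60.8 ± 5.46 times hapln1b. In each of these pairs, as in the col9a1 and col5a2 pairs, 1 copy held most of the reads in every library. Cnmd, which encodes the secreted protein chondromodulin, averaged 476 CPM per kb, and epyc, a small proteoglycan gene of cartilage, 44.04 CPM per kb. Matn3a and matn3b averaged 0.309 CPM and 1.46 CPM, and snorc, a cartilage membrane proteoglycan gene, was listed at 0 in all 4 libraries.

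Regulators of cartilage were detected in all 4 libraries. Sox9a, the transcription factor of chondrocyte identity, had 192, 194, 243 and 258 CPM and stood at 121 CPM per kb, and its copy sox9b averaged 25.3 ± 9.302 CPM. Sox5 and sox6, which act with sox9, averaged 459 ± 37.5 CPM and 213 ± 27.3 CPM. Sox9a, sox9b, sox5 and sox6 were lower in both libraries of biological replicate 1 than in those of biological replicate 2. Among matrix genes, matn1 and col11a2 were higher, while matn4, hapln1a, acana and epyc were lower, all without overlap. Of the 21 cartilage genes with a mean of 50 CPM or more, 7 were higher in biological replicate 1 without overlap and 11 were lower. Among all 4151 genes at that level, 28% were higher and 41.7% were lower. Col10a1a, the collagen of hypertrophic chondrocytes and of early bone, had 995, 1031, 1168 and 1276 CPM, and ihha, the hedgehog ligand of maturing cartilage, averaged 5.304 ± 1.46 CPM. The 12 bone genes held 0.0477 ± 0.00494% of counts. Among them alpl, the alkaline phosphatase of mineralising tissue, averaged 114 ± 27.8 CPM, runx2b, a bone transcription factor, 47.7 ± 0.746 CPM and sp7, the osteoblast factor osterix, 8.31 ± 2.42 CPM, while bglap was listed at 0.

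Collagen genes as a whole held 7.602, 6.97, 6.96 and 7.72% of counts. Type I chains accounted for 2.75 ± 0.247% of all counts, type II for 1.103 ± 0.0745%, type IX for 0.907 ± 0.0178%, type V for 0.714 ± 0.0555% and type XI for 0.689 ± 0.06102%. The basement membrane collagen of vessels and epithelia, type IV, held 0.0724 ± 0.0134%, with col4a5 and col4a1 close to each other at the top, at 226 ± 38.8 CPM and 224 ± 54.8 CPM. Per kb, type I chains stood at 2.42 ± 0.219 times type II chains, with library 1_2 lowest at 2.105.

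With the copies of a chain summed for types I, XI and V, chains of types IX, I and XI stood close to each other per kb. Those of types V and VI stood further apart. Type IX collagen is a heterotrimer of the col9a1, col9a2 and col9a3 chains, and these genes stood at 899, 919.5 and 928 CPM per kb. The ratio of col9a1a to col9a2 was 0.936, 0.9496, 1.01 and 1.02, and that of col9a3 to col9a2 was 0.979, 1.02, 1.03 and 1.003. Col9a1b, the other copy, reached 0.00417 to 0.0138 of col9a1a. For type I, col1a1a and col1a1b together stood at 0.951, 0.952, 0.8802 and 0.918 times col1a2, and col1a1b at 3.14, 3.03, 3.71 and 3.09 times col1a1a. The sum of col11a1a and col11a1b was 0.972, 0.887, 1.11 and 1.09 times col11a2. For type V, col5a2a and col5a2b together stood at 0.7698, 0.699, 0.863 and 0.8499 times col5a1. For type VI, col6a1 stood at 1.39, 1.398, 1.38 and 1.395 times col6a2, a ratio that varied less between libraries than any of the others listed here. Both entries named col6a3 were listed at 0.

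**Figure D4:**
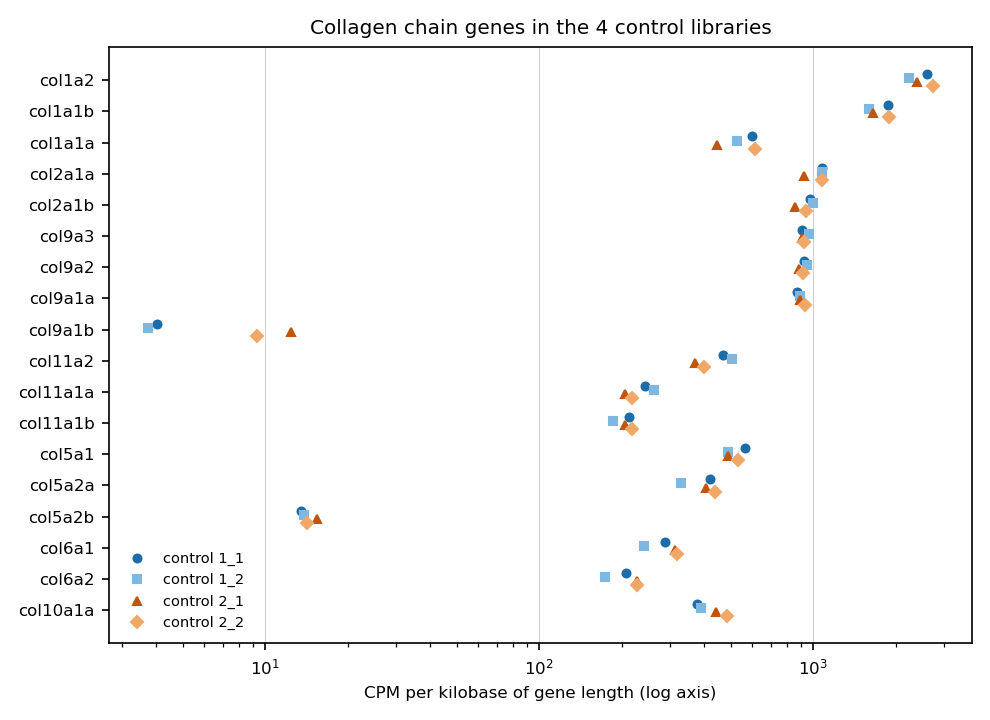
CPM per kilobase (log axis) of the collagen chain genes of types I, II, IX, XI, V, VI and X, with 1 symbol per control library. The col9a1a, col9a2 and col9a3 genes lie together between 0.936 and 1.03 times col9a2 in every library, while col9a1b and col5a2b lie far below their copies.

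Connective tissue genes held 5.25, 4.45, 5.05 and 5.51% of counts, the largest share of the cell type lists examined in every library. Library 1_2 was lowest and library 2_2 highest. Summed per kb, the order was reversed, with cartilage at 1.13, 1.36, 1.05 and 1.04 times connective tissue. Of 34 genes, 32 had a count and 23 averaged 100 CPM or more, and the median was 101 CPM per kb. For the 32 members with a count, the median percentile among the protein-coding genes with a count was 98.01. Col1a2 (chromosome 19, 40983221 to 41002980) made up 28.3% of the list. Below the type I and V collagens came sparc, a collagen-binding matrix glycoprotein, at 659 CPM per kb, the small leucine-rich proteoglycan gene dcn (decorin) at 457 CPM per kb and tgfbi at 442 CPM per kb. The related proteoglycan genes ogna and fmoda stood at 331 and 258 CPM per kb, and mmp2, a matrix protease, at 311 CPM per kb. The chemokine gene cxcl12a averaged 711 ± 139.7 CPM and the PDGF receptor gene pdgfra 549 ± 111 CPM. Differences between the replicates are given as mean log2(CPM + 0.5) of biological replicate 1 minus that of biological replicate 2. Col1a2, col1a1b, col5a1 and col12a1a were nearly level, at -0.08, -0.03, 0.04 and -0.04. Sparc, dcn, tgfbi, ogna, mmp2, fmoda and cxcl12a were each lower in biological replicate 1, at -0.60 to -0.32. Col6a1 and col6a2 were also lower without overlap, each at -0.26, and col1a1a and col5a2a overlapped, at 0.10 and -0.18. Of the 25 connective tissue genes with a mean of 50 CPM or more, 16 were lower without overlap and 0 were higher. Among all 4151 genes at that level, 41.7% were lower and 28% were higher. The 5 tendon genes held 0.0792 ± 0.0118% of counts, among them thbs4b at 483 ± 50.6 CPM and scxa, the tendon transcription factor scleraxis, at 72.5 ± 13.03 CPM.

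The genes of the neural crest and pharyngeal arches held 0.285, 0.243, 0.387 and 0.375% of counts, more than the endothelial identity genes in every library. All 28 had a count, 27 reached 1 CPM in all libraries and 14 averaged 100 CPM or more, with a median of 60.6 CPM per kb. The most abundant per kb were twist1a, a bHLH factor of mesenchyme, dlx4a, a homeobox gene of the arches, and prrx1a, a homeobox gene of connective tissue progenitors, at 205, 196 and 183 CPM per kb. Hand2, which patterns the ventral arch, had 206, 162, 297 and 263 CPM, and barx1, a further homeobox gene of the arches, had 180.2, 135, 238 and 231 CPM. Both were lower in biological replicate 1, without overlap. Genes of the early migrating crest were low, with foxd3 at 2.597 ± 0.533 CPM and crestin at 0.771 ± 0.0454 CPM, and sox10, which is active in crest, glia and some cartilage, at 65.4 ± 5.79 CPM. Among 48 hox genes, which are off in the anterior face and on in the posterior arches and trunk, hoxb4a and hoxb3a led per kb at 44.6 and 29.7 CPM per kb.

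Mural cells, the pericytes and smooth muscle cells that wrap vessels, were represented by 17 genes with 0.144 ± 0.0322% of counts. The PDGF receptor gene pdgfrb averaged 316 ± 61.5 CPM, foxc1b, a forkhead factor of head mesenchyme and mural cells, 283 ± 85.3 CPM, and the smooth muscle genes acta2 and myh11a 84.1 ± 25.2 CPM and 182 ± 27.2 CPM. Tagln, a further smooth muscle gene, averaged 11.97 ± 4.19 CPM, and cnn1b 1.002 ± 0.0596 CPM. Foxc1b, pdgfrb and notch3 are also active in arch mesenchyme, so these genes do not mark mural cells alone.

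The 74 blood genes together held 0.646, 0.745, 0.503 and 0.486% of counts, more than the 34 endothelial identity genes in each library. Of the blood sum, 20.6% was thbs1b, which many cell types make. The 58 genes of the endothelial identity, arterial, and venous and lymphatic lists together held 0.219, 0.211, 0.2997 and 0.295%. Erythrocyte genes held 0.259 and 0.301% of counts in biological replicate 1, against 0.165 and 0.153% in biological replicate 2. Slc4a1a, the anion exchanger of the red cell membrane, had 671, 813, 342 and 327 CPM, and the larval globin genes hbbe1.1 and hbae3 had 206, 229.95, 37.7 and 23.6 CPM and 182, 219, 60.5 and 42.1 CPM. Library 1_2 was highest and library 2_2 lowest in all 3. Of the 4151 genes with a mean of 50 CPM or more, 28% were higher in biological replicate 1 without overlap and 41.7% were lower. Of the 9 erythrocyte genes at that level, 6 were higher and 1 was lower. The lower one was rhag, a relative of the Rh antigens, which had 469.5, 436, 500.5 and 476 CPM, and cahz, the red cell carbonic anhydrase, overlapped at 75.5, 75.3, 75.1 and 77.4 CPM. The embryonic globin copies are near-identical, so the counts of single copies are uncertain. The adult globin genes hbaa2, hbba1 and hbba2 were listed at 0.

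Leukocyte genes were present as well. Neutrophil genes held 0.103 ± 0.0193% of counts, among them mpx, the granule peroxidase, at 459.8, 565, 454 and 412 CPM, npsn, a granule protease, at 181 ± 46.5 CPM and the gelatinase gene mmp9 at 123 ± 24.05 CPM. Another neutrophil gene, lyz, averaged 2.704 CPM. Macrophage and other leukocyte genes held 0.142 ± 0.0335%, of which lcp1, the actin bundler L-plastin of all leukocytes, made 52.6%. The macrophage pore gene mpeg1.1 averaged 1.398 CPM, and the lymphocyte recombinase gene rag1 had 46.4, 39.6, 16.6 and 15.1 CPM, higher in both libraries of biological replicate 1 than in both of biological replicate 2. Thrombocyte genes held 0.131 ± 0.00309%, but 93.95% of that was thbs1b, a thrombospondin that many cell types make, and itga2b, the thrombocyte integrin, averaged 18.6 ± 13.4 CPM.

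Lists of tissues that the sort was not aimed at held shares from about that of the endothelial identity list down to near 0. Muscle genes exceeded the endothelial identity genes in both libraries of biological replicate 1, and epidermis genes did so in library 1_1. Epidermis genes held 0.1301 ± 0.02103% of counts, mostly krt8, krt18a.1 and krt94, and the basal epidermal factor tp63 averaged 0.615 CPM. Krt8 and krt18a.1 encode simple keratins that are not specific to skin. Skeletal and cardiac muscle genes held 0.104 ± 0.06399%, among them the muscle actin gene actc1b at 606, 839, 329 and 187 CPM, and the heart genes myl7 and cmlc1 averaged 0.455 CPM and 0.357 CPM. Glial genes held 0.0663 ± 0.00775%, chiefly glula, a glutamine synthetase gene, and neuronal genes 0.0489 ± 0.00536%. Liver genes held 0.0299 ± 0.002901%, but 91.9% of that was rbp4, a retinol-binding protein gene, and fabp10a, which defines liver, averaged 1.303 CPM. Photoreceptor and lens genes held 0.0388 ± 0.0349%, pigment cell genes 0.00226 ± 0.000415%, pancreas genes 0.00325 ± 0.00421% and intestine genes 0.000393 ± 0.000141%.

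Transcription factors, taken from the family labels in the authors' table, comprised 2310 genes with 8.66 ± 0.147% of counts, and 1417 of them reached 1 CPM in all libraries. The bZIP family held 1.84 ± 0.441% of counts and the far larger C2H2 zinc finger family 1.63 ± 0.108%. Homeobox genes held 0.705 ± 0.127%, and ETS genes, with fli1a as the most abundant, 0.161 ± 0.003903%. Per kb, the leading factors were junbb, fosab, hmgb2b, junba and jun. Twist1a, dlx4a and prrx1a ranked 17, 18 and 21 and fli1a ranked 27 among them. The 29 immediate early genes held 2.72 and 2.78% of counts in biological replicate 1, against 1.797 and 1.88% in biological replicate 2. Junbb had 6526, 6664, 3412 and 3857 CPM, fosab 3864, 4033, 2364 and 2307 CPM and jun 2889, 2811, 2019 and 2179 CPM, with both libraries of biological replicate 1 above both of biological replicate 2 in each case. These genes respond to handling as well as to signals in the larva, and the libraries followed dissociation and sorting, whose part in these levels was not tested.

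The housekeeping and growth genes gave the remaining large shares. Ribosomal protein genes held 2.28 ± 0.443% of counts, transcripts of the mitochondrial genome 2.18 ± 0.191%, actin and actin-binding genes 1.73 ± 0.0939% and elongation factor genes 0.766 ± 0.0475%. Cell cycle genes held 0.866 ± 0.0648%, of which the tubulin gene tuba8l4 made 19.3%, the largest part. Pcna, the DNA polymerase clamp, had 1051, 1104, 1005 and 939.98 CPM. The proliferation marker mki67 had 550.3, 672, 538 and 556 CPM. All 6 replication helicase genes, mcm2 to mcm7, averaged between 449.8 and 860.4 CPM. The mitotic kinase gene plk1 held 0, 0, 0 and 1 counts, and this value carries the same limit as the entries at 0. Hpse2, the target of the morpholino used in the other libraries, had 26.8, 19.4, 33.6 and 33.9 CPM here and ranked 4429 per kb.

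The 4 libraries were alike in rank but differed by more than counting error. Over the 4151 genes with a mean of 50 CPM or more, the median CV was 10.7%, and counting alone would give 3.63%. The biological coefficient of variation (BCV), the square root of edgeR's common dispersion, was 19.1% over the 4 libraries and 10.3% with biological replicate as a term. The second value covers only the spread between the 2 libraries of a replicate, which may be technical. Between 1_1 and 1_2, 2 genes of the 4151 differed more than 2-fold, and between 2_1 and 2_2, 4 genes did. Between libraries of different replicates, 53 to 127 genes did. The mean chi-square per gene was 5.20 and 4.41 within the replicates and 13.7 to 22.1 between them, so none of the pairs agreed within sampling noise. All 4 libraries were kept as separate values, but this does not make them independent. They remain 2 biological replicates, and the libraries of a replicate may share a pool of larvae. The least variable gene of the 4151 was dldh, a mitochondrial dehydrogenase subunit gene, at 142, 143, 141 and 142 CPM (CV 0.575%), followed by fam193a and the oligosaccharyltransferase gene stt3a. Counting alone would give a CV of 1.95% even at the 10th percentile of the 4151 genes. CVs this low are therefore the low extreme of many genes and do not show steadier levels.

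Biological replicates 1 and 2 differed in a patterned way. Of the 4151 genes, 28% had both libraries of biological replicate 1 above both of biological replicate 2, and 41.7% had the reverse. With only 2 biological replicates these are differences between 2 samples of 1 condition, and no test was made. The median difference over the 9894 genes at 10 CPM or more was -0.10 on the log2(CPM + 0.5) scale. Heat shock genes were higher in biological replicate 1, with 11 of 11 at 50 CPM or more above without overlap, and so were 19 of 24 immediate early genes, 59 of 60 ribosomal protein genes and 6 of 6 genes of macrophages and other leukocytes. In the other direction, 19 of 21 arch genes, 8 of 8 genes of pericytes and smooth muscle and 4 of 4 venous and lymphatic genes were lower in biological replicate 1. Cartilage genes were divided, with 7 of 21 higher in biological replicate 1 and 11 lower, and connective tissue genes had 0 of 25 higher and 16 lower.

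Most endothelial identity genes were lower in biological replicate 1. Of the 6 at 50 CPM or more, 2 were higher without overlap and 3 were lower, with a median difference of -0.19. Among all 4151 genes at that level, 28% were higher and 41.7% were lower. Of the 28 at 10 CPM or more, 25 had a negative difference, beside 62.5% of all genes at that level, and the median was -0.81. The lowest were pecam1 at -1.67, ecscr, an endothelial surface protein gene, at -1.63, and the orphan receptor gene gpr182 at -1.52, beside cdh5 at -0.94, kdrl at -1.13 and fli1a at -0.35. The positive ones were fli1b, tal1 and dusp5, at 0.26, 0.22 and 0.19. In sum the list held 0.119 and 0.118% of counts in biological replicate 1, against 0.168 and 0.166% in biological replicate 2. Markers of several other tissues had their higher shares in biological replicate 1. Of all genes at 10 CPM or more, 37.5% had a positive difference. It was positive for 15 of 15 muscle genes, 6 of 6 photoreceptor genes, 11 of 11 genes of macrophages and other leukocytes and 16 of 19 erythrocyte genes at 10 CPM or more, but for 2 of 9 epidermis genes. Photoreceptor and lens genes held 0.0804 and 0.0548% of counts in biological replicate 1, against 0.0104 and 0.00938% in biological replicate 2. Skeletal and cardiac muscle genes held 0.131 and 0.179% of counts in biological replicate 1, against 0.0667 and 0.03699% in biological replicate 2. Pancreas genes, at much lower shares, held 0.00946 and 0.00224% of counts in biological replicate 1, against 0.000687 and 0.000626% in biological replicate 2. Blood genes summed to 6.89, 8.32, 3.08 and 2.86 times the endothelial identity genes per kb. The part of these tissues, and of heat shock and immediate early genes, in the replicate difference was not tested.

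**Figure D5:**
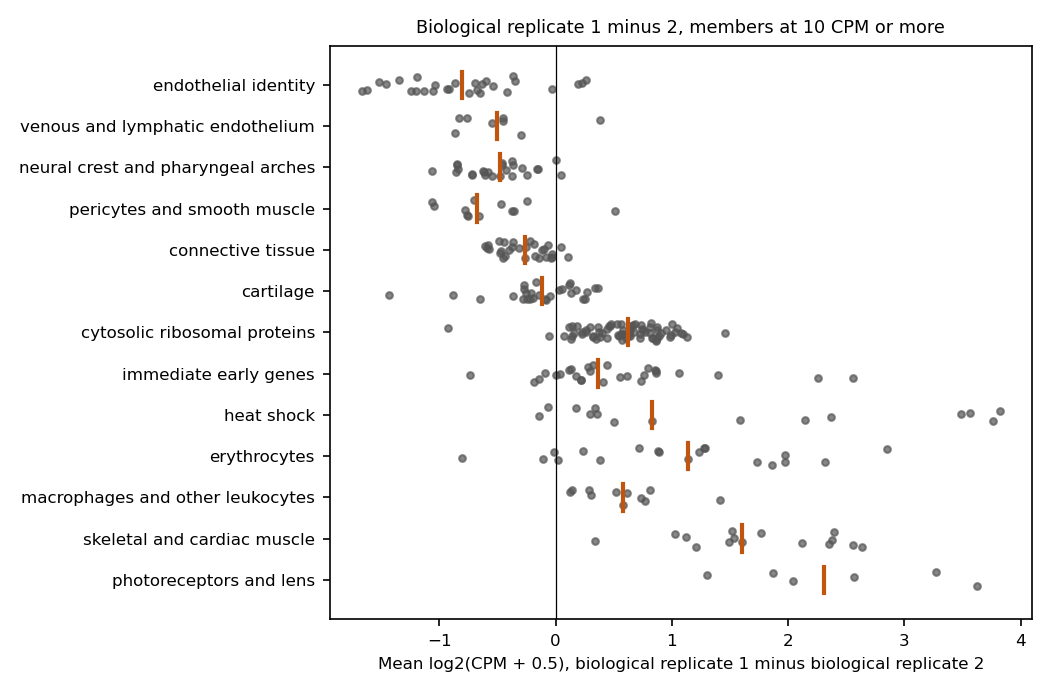
Mean log2(CPM + 0.5) of biological replicate 1 minus that of biological replicate 2 for members of 13 lists at a mean of 10 CPM or more, 1 point per gene, with the list median as an orange bar. The median is -0.81 for endothelial identity, -0.12 for cartilage, 0.62 for ribosomal proteins and 2.31 for photoreceptors and lens.

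The single genes that differed most between the replicates were few in kind. Of the 8 with the largest positive difference, 4 were copies of the inducible chaperone gene hsp70, whose near-identical sequences make the single values uncertain. Hsp70.3 had 242 and 332 CPM in biological replicate 1, against 19.95 and 20.98 CPM in biological replicate 2. The rod opsin gene rho had 434 and 314 CPM in biological replicate 1, against 39.4 and 36.2 CPM in biological replicate 2, and the ultraviolet cone opsin gene opn1sw1 had 108 and 100.02 CPM in biological replicate 1, against 6.996 and 9.08 CPM in biological replicate 2. Per2, a circadian clock gene that light induces in zebrafish, had 112 and 186 CPM in biological replicate 1, against 13.6 and 13.6 CPM in biological replicate 2, and hbbe1.1 completed the set. Among the genes with the most negative differences was the Wnt ligand gene wnt9b, with 30.5 and 25.4 CPM in biological replicate 1, against 88.7 and 90.5 CPM in biological replicate 2. Others were adma, which encodes adrenomedullin, at -1.46, osr1, a zinc finger factor of mesenchyme, at -1.37, nktr at -1.35, scinla, a gene of the gelsolin family of actin-severing proteins, at -1.32, znf1179 at -1.28 and the cytochrome P450 gene cyp2ad3 at -1.25. The list of opsins and chaperones was chosen by these differences and is given as a description.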

How the data were processed

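Values were analysed for the 4 control libraries only. The authors deposited raw counts of reads per gene, in 1 table of 32520 genes that also gives names, coordinates, a gene length and family labels. GRCz11 is the build named in the submitters' processing notes. Aligner, counter, strand use and the derivation of gene length are not given in the sources that were at hand. Columns were matched to samples by the sample description, with 0 sample columns unmatched.

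CPM is a gene's count scaled to a library total of 1000000, and CPM per kb divides it by gene length. A pseudocount of 0.5 CPM was used on the log2 scale. Of 530 entries in 28 gene lists, 518 matched by name, 3 matched an older or alternative name and 9 had no match. The BCV was fitted with edgeR 4.0.16 in R 4.3.3 after filterByExpr and trimmed-mean (TMM) scaling, a step tested on simulated data, and repeated with DESeq2 1.42.0 size factors. Other values were computed with Python 3.11.15, pandas 2.3.3 and numpy 2.4.6. No group comparison and no test was made.

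Genes named are the 20 highest by CPM and by CPM per kb, the 12 highest per kb of the endothelial identity, cartilage and connective tissue lists, the 3 highest of each other list, the 6 markers, hpse2, and the 8 highest and 8 lowest by CV and by replicate difference at 50 CPM or more. Of these, 1 gene is not reported here. Any other gene named was chosen after its values were seen. The libraries, the markers and the lists were chosen with earlier results of these data known.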

Additional observations from a re-analysis of the deposited data

Results flagged for a closer look

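Among 187 sets of 4 library values examined, 5 had 1 library set apart from the other 3 by a gap that took up most of the range. For 4 independent values, the limit used flags about 1 in 20 sets by chance. These libraries are paired by biological replicate and some sets share genes, so that rate is not a chance level for them. The cartilage genes summed to 41232 CPM in library 2_1, below 43856, 44126 and 43780.2 CPM in libraries 1_1, 1_2 and 2_2, and col2a1a, a cartilage collagen gene, was at 5488 CPM in library 2_1, below 6397, 6373 and 6368 CPM in the same other libraries. In library 1_2, tal1, a factor of endothelium and blood, was highest at 134 CPM, against 102, 101 and 99.96 CPM, and the tubulin gene tubb5 was lowest at 126 CPM, against 137, 137 and 138 CPM. In library 1_1, the pancreatic trypsin gene prss59.1 was highest at 7.38 CPM, against 0.792, 0.389 and 0.529 CPM. None of these was found in library 2_2, and no cause was tested.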

How the results depend on the processing

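The shares of counts held their size where the totals were TMM-scaled, the libraries pooled, or each library left out in turn. Without its most abundant gene, the endothelial identity list fell to 0.0949% of counts, cartilage to 3.71% and connective tissue to 3.63%. As shares of the length-scaled level, cartilage held 2.83% and connective tissue 2.50%, and with mitochondrial and ribosomal protein genes out of the total cartilage held 4.53%. The blood share, the number of genes at 1 CPM and the number of genes needed for 50% of counts stayed within the spread of the libraries, or within 1.5 times for counts of genes, in every alternative run. The 10 top genes held 7.43% without the mitochondrial genome. The BCV was 21.5% with no filter beyond a count above 0 and 17.6% at a mean of 10 CPM or more. It was 19.1% with DESeq2 size factors and ran between 17.2 and 20.4% when each library was left out. With biological replicate as a term it was 10.3%, which covers only the spread between libraries of the same replicate. No paired analysis was possible because there is 1 group and no test. With 2 biological replicates, the SD over the 4 libraries mixes the spread between replicates with that between their libraries, and genes under about 1 CPM rest on few reads.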
